A study of Mus musculus with 4 samples.

Results

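The imprinted Dlk1-Meg3 cluster on distal mouse chromosome 12 was followed through 7 of its genes, Begain, Dlk1, Meg3, Rtl1, Rian, Mirg and Dio3, out of 55228 genes in the count table. They were found by their symbols, and all 7 were present. Total RNA of rib cartilage cells from C57BL/6 embryos at stage E17.5 had been sequenced in 4 libraries. There were 2 wild-type (WT) libraries and 2 Trim28 knockout (Trim28 KO) libraries, with no other allele or treatment named. The labels do not say how the knockout was made, whether it covers every cell, or whether each library is a different embryo. The p-values therefore measure the spread between these samples, which may be technical.

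In an imprinted cluster, a gene is expressed mainly from the chromosome inherited from 1 parent, through DNA methylation set in the germ line. In this cluster the protein genes Dlk1, Rtl1 and Dio3 are expressed mainly from the paternal chromosome, and the noncoding RNA genes Meg3, Rian and Mirg from the maternal chromosome. A methylated region between Dlk1 and Meg3 controls the choice, and the maternal RNAs carry many miRNAs and small nucleolar RNAs (snoRNAs). TRIM28, brought to DNA by zinc finger proteins such as ZFP57, helps to keep methylation at imprinted regions. The table counts RNA from both parental copies together, so the parental sides named here are background and not a measurement.

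The sequences just upstream of Meg3, Dlk1 and Begain are shown because the first is the maternal RNA with the highest level, the second the paternal gene with the highest level, and the third a gene that fell. Each is the 250 bases before a RefSeq start site on GRCm38.p6, read 5′ to 3′ on the gene's own strand. Meg3 lies at chr12:109540746-109540995 (plus strand), Dlk1 at chr12:109452573-109452822 (plus strand), and Begain at chr12:109068218-109068467 (minus strand). Capitals mark matches, on either strand, to the ZFP57 motif TGCCGC, to the cyclic AMP response element TGACGTCA, or to the TATA box TATAAA.
Meg3: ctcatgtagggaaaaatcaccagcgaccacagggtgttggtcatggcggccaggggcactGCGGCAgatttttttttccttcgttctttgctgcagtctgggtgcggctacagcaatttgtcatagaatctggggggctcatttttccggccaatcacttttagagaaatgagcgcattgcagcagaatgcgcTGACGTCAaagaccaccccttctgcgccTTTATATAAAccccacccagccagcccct
Dlk1: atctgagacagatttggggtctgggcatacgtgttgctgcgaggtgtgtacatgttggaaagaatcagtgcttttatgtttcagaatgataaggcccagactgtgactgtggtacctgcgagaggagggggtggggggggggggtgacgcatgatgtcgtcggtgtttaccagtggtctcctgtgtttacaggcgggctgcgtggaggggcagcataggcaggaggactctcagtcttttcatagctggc
Begain: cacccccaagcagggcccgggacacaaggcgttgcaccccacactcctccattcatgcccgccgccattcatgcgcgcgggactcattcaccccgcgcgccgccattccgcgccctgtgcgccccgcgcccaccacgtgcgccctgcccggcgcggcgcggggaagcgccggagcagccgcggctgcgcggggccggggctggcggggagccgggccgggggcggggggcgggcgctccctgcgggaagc

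The Meg3 window held 1 match to the ZFP57 motif, 1 to the cyclic AMP response element, and 2 to the TATA box, which overlap on opposite strands. Among 32851 such windows in the RefSeq table, 8.7% held the first motif, 1.5% the second and 12.4% the third. The Dlk1 and Begain windows held none of the 3. The Begain window had 37 CpG sites, more than 97.8% of all windows, against 10 for Meg3, 8 for Dlk1 and a median of 6. RefSeq gives other start sites too: the 5 Begain windows had 22 to 37 CpG sites, and the second Meg3 window had 0. The windows shown are those that end nearest to the gene's start in GENCODE M21, and the others of both genes held none of the 3 motifs. These letter matches describe the windows only.

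The cluster also encodes miRNAs, short RNAs that pair with messages through their seed, bases 2 to 8. The RefSeq table gave 58 hairpins and 113 mature sequences between Begain and Dio3. They held 104 seeds, of which 9 occurred in 2 mature sequences each. Of the hairpins, 6 lie on the strand opposite to Rtl1, within its exons. The miRNAs made there are known to pair perfectly with the Rtl1 message, and 1 mature sequence of each hairpin is shown for that reason. After them stands a pair from hairpins farther along the cluster that share a seed. The seed is in capitals.
miR-431-5p: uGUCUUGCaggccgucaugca
miR-433-3p: aUCAUGAUgggcuccucggugu
miR-127-3p: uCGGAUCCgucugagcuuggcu
miR-434-3p: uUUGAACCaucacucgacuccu
miR-432: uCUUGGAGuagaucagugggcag
miR-136-5p: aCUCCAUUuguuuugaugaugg
miR-379-3p: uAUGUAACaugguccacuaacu
miR-411-3p: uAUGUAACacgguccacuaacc

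Library totals ran from 18616896 to 20082123 counts, and a count of 3 was worth 0.151 to 0.159 CPM, the usual unit of counts relative to library size (here scaled by TMM, the trimmed mean of M-values). Trim28 stood at 225.3 and 185.6 CPM in WT 1 and WT 2, and at 51.1 and 54.5 CPM in Trim28 KO 1 and Trim28 KO 2. It fell by 1.96 on the log2 scale (SE 0.20, edgeR quasi-likelihood test, adjusted p = 2.28e-07). The same test, with an adjusted p under 0.05 as its threshold, called 2898 of 16639 tested genes (17.4%). Of these, 1438 were higher in Trim28 KO (8.64%) and 1460 lower (8.77%). The cells carried strong cartilage expression: the 14 chondrocyte markers summed to between 100785 and 139819 CPM in the 4 libraries, and 2 of them were called, both lower.

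All 7 cluster genes passed the filter on low counts, and 3 were called, all lower in Trim28 KO: Begain, Rtl1 and Dio3. Dio3 passed the filter through its WT libraries alone, so its call could only be lower. Of the other 6 genes 2 were called, Begain and Rtl1, beside 17.4% of all tested genes called either way and 8.77% called lower. None was called higher by edgeR's quasi-likelihood test, DESeq2 or limma-voom, and in the first of these 1 gene, Mirg, was higher at an unadjusted p under 0.05. Dlk1, Meg3, Rian and Mirg were not called. The 3 called genes had the lowest levels per length of the 7, and the 3 genes that hold nearly all of the cluster's counts were not called. For 4 of the 7 genes (57.1%), Mirg, Rtl1, Dio3 and Begain, the libraries of the genotypes did not overlap, which is near the 58.0% of all tested genes.

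The levels per length spanned more than 3 orders of magnitude. In RPKM, which is CPM divided by the gene length in kilobases, the mean over the 4 libraries was 355.8 for Dlk1, 96.8 for Meg3, 36.8 for Rian, 12.4 for Mirg, 4.86 for Rtl1, 1.18 for Begain and 0.217 for Dio3. This order held in each library, with no overlap between neighbouring genes. Among tested genes, Dlk1 ranked 174 by mean RPKM, Meg3 588 and Dio3 15807. The 7 genes together took 0.482% and 0.517% of the counts in WT 1 and WT 2 and 0.54% and 0.488% in Trim28 KO 1 and Trim28 KO 2. Dlk1, Meg3 and Rian made up 97.3% to 97.6% of these counts.

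**Figure D1:**
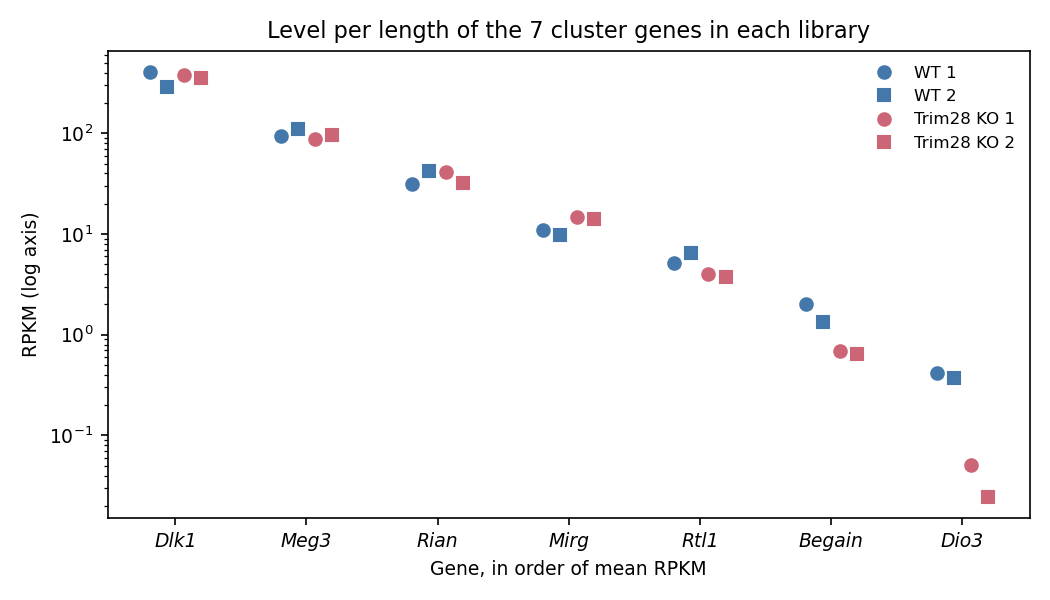
RPKM on a log axis for the 7 cluster genes, ordered by their mean, with 1 point per library (blue, WT; red, Trim28 KO; circle, library 1; square, library 2). The genotypes overlap for Dlk1, Meg3 and Rian and stand apart for Mirg, Rtl1, Begain and Dio3.

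Of the paternal genes, Dlk1 had by far the highest level. It encodes a membrane protein related to the Notch ligand Delta, found in many fetal tissues and in precursors of cartilage, muscle and fat. The gene lies at chr12:109452823-109463336 on the plus strand. Its counts were 43325 and 32113 in WT and 41561 and 39626 in Trim28 KO, or 407, 287, 378 and 352 RPKM in the same order. Both Trim28 KO libraries lay between the WT libraries. The log2 fold change was 0.07 (SE 0.24, 95% interval -0.42 to 0.57, edgeR quasi-likelihood adjusted p = 0.873). The higher WT library exceeded the lower 1.42-fold, against a median of 1.19-fold over all tested genes. Changes within the interval given were not excluded by these libraries.

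Rtl1, a gene derived from a retrotransposon and needed for fetal vessels of the placenta and for muscle, fell. It lies at chr12:109589193-109600330 on the minus strand. Its counts were 621 and 819 in WT and 494 and 473 in Trim28 KO, which gave 33.0, 41.4, 25.4 and 23.7 CPM. Both Trim28 KO libraries were below both WT libraries. The level was 1.51-fold lower in Trim28 KO (log2 fold change -0.60, SE 0.19, 95% interval -0.99 to -0.20, edgeR quasi-likelihood adjusted p = 0.033). The call did not hold under several other settings: the adjusted p was 0.0663 with library size alone, 0.0624 with DESeq2 and 0.0514 with limma-voom. Without WT 2 the log2 fold change was -0.40 (adjusted p = 0.265), and the adjusted p was 0.144 without Trim28 KO 1 and 0.195 without Trim28 KO 2. On simulated counts whose dispersion varied by gene, the test made more false calls than its threshold allows. This bears on calls near 0.05 such as this one, although far fewer genes were changed there than were called here.

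The Rtl1 row has limits set by the counting. Strand was not used, so RNA of the maternal strand that runs opposite to Rtl1 cannot be told apart from Rtl1 itself. The 7 miRNA genes within its exons, those of miR-431, miR-433, miR-127, miR-434, miR-432, miR-136 and miR-3071, were listed at 0 counts in all 4 libraries. They take up 534 of the 6358 bases of Rtl1 exons (8.4%), where reads that touch both genes were not counted. No reading of the miRNAs printed above follows from these rows. Meg3, Rian and Mirg also share exon bases with other genes (3.42% for Rian and 5.03% for Mirg in GENCODE M21). Reads that touch both genes were not counted there either.

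Dio3 encodes the deiodinase that inactivates thyroid hormone, an enzyme of fetal tissues and placenta. It lies at chr12:110279068-110281097 on the plus strand. Its counts were 16 and 15 in WT and 2 and 1 in Trim28 KO, with no overlap. These correspond to 0.85, 0.758, 0.103 and 0.0502 CPM, and both Trim28 KO values lie below that of 3 counts. Over both libraries of a genotype, 31 counts in WT stood against 3 in Trim28 KO. Scaled by library size, their ratio was 10.5 (95% interval 3.28 to 53.8, counting error only, without the spread between libraries). Dio3 passed the filter through its WT libraries alone, so it could be tested only because it was higher there. Its call by edgeR's quasi-likelihood test therefore adds nothing to the counts, and neither does the interval of the ratio. That call was lost with DESeq2 (adjusted p = 0.0514), without Trim28 KO 1 (0.062) and without Trim28 KO 2 (0.092). Dio3os, a noncoding RNA gene next to it on the other strand, had 4 and 3 counts in WT and 0 and 0 in Trim28 KO and was not tested.

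Begain, which marks the proximal edge of the cluster and encodes a protein of the postsynaptic side of synapses, also fell. It lies at chr12:109032187-109068217 on the minus strand. Its counts were 178 and 122 in WT and 62 and 60 in Trim28 KO, or 9.45, 6.16, 3.19 and 3.01 CPM. The Trim28 KO libraries lay close together and below both WT libraries, of which WT 1 was the higher. The level was 2.51-fold lower in Trim28 KO (log2 fold change -1.33, SE 0.28, 95% interval -1.91 to -0.74, edgeR quasi-likelihood adjusted p = 0.00167). Without WT 1 the log2 fold change was -0.97 and the adjusted p 0.0537, and the call held without any other library.

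Markers of nerve moved in the same direction as Begain and Dio3, and so did the osteoblast, fibroblast and erythroid markers given below. Over all tested genes, 8.77% were lower and 8.64% higher. Of 8 neural and Schwann cell markers 6 were tested and 4 fell, Mbp and Tubb3 among them, with a summed level of 36.4 to 45.8 CPM in WT and 16.8 to 19.1 CPM in Trim28 KO. The 4 became 2 without WT 2 or Trim28 KO 1 and 1 without Trim28 KO 2. Of the other neuronal markers, Stmn2 had 80 and 80 counts in WT and 52 and 41 in Trim28 KO (log2 fold change -0.81, SE 0.32, not called). Elavl4 had 0 and 0 counts in WT and 3 and 1 in Trim28 KO, and Snap25 was at 0 in all libraries. The CPM given here for cell types are sums over all markers of a list, called or not. Osteoblast markers also fell, 8 of 9, from 36487 to 56830 CPM in WT to 17085 to 23477 CPM in Trim28 KO. So did 6 of 8 fibroblast and perichondrium markers (3 of 8 without Trim28 KO 1), from 13220 to 14123 CPM in WT to 5895 to 6976 CPM in Trim28 KO, and all 6 tested erythroid markers. Of 8 macrophage markers 5 rose, from 116.9 to 119.4 CPM in WT to 244.2 to 401.6 CPM in Trim28 KO. The part of these cells in the cluster's values was not tested, and in bulk RNA fewer cells of a type and less RNA per cell cannot be told apart.

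The maternal side was led by Meg3, a long noncoding RNA studied as a growth suppressor and as the first transcript downstream of the control region. It lies at chr12:109541001-109571726 on the plus strand. Its counts were 32044 and 39285 in WT and 30831 and 34539 in Trim28 KO, or 94.1, 110, 87.8 and 95.8 RPKM. WT 2 was the highest library, and Trim28 KO 2 lay between both WT libraries. The log2 fold change was -0.15 (SE 0.23, 95% interval -0.62 to 0.32, edgeR quasi-likelihood adjusted p = 0.709).

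Rian, the next maternal RNA and the host of the C/D box snoRNAs of the cluster, was not called either. It lies at chr12:109603940-109661716 on the plus strand. Its counts were 19107 and 26941 in WT and 25513 and 20402 in Trim28 KO, or 31.7, 42.5, 41.1 and 32.0 RPKM. Each genotype had 1 library near 32 RPKM and 1 above 41 RPKM. The log2 fold change was -0.02 (SE 0.23, 95% interval -0.50 to 0.45, edgeR quasi-likelihood adjusted p = 0.961), and its sign turned with library size alone (0.04) and without a filter (0.01).

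Mirg, the host of the distal miRNAs, was the 1 cluster gene whose libraries were all higher in Trim28 KO. It lies at chr12:109729764-109749460 on the plus strand. Its counts were 1508 and 1428 in WT and 2078 and 2057 in Trim28 KO, or 80.1, 72.1, 107 and 103 CPM. The libraries of each genotype lay close together. The log2 fold change was 0.47 (SE 0.19, 95% interval 0.07 to 0.86), and the edgeR quasi-likelihood adjusted p of 0.0997 missed the threshold. Over the alternatives the adjusted p lay between 0.0589, with library size alone, and 0.306, without Trim28 KO 1.

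**Figure D2:**
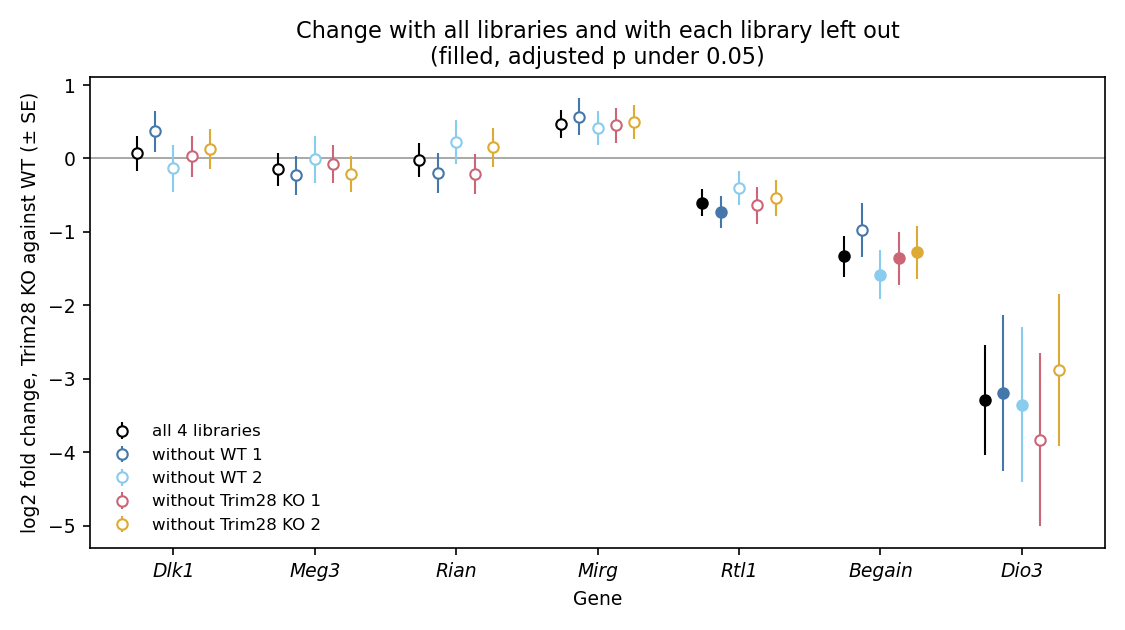
Log2 fold change of Trim28 KO against WT (± SE) for the 7 cluster genes with all 4 libraries (black) and with 1 library left out (colours); filled points have an adjusted p under 0.05. Begain, Rtl1 and Dio3 stay below 0 in each fit, and each loses its call in at least 1 fit; Dlk1 and Rian cross 0.

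Ratios within a library do not depend on scaling between libraries. Counts of the maternal RNAs (Meg3, Rian and Mirg) per count of the paternal genes (Dlk1, Rtl1 and Dio3) were 1.20 and 2.05 in WT and 1.39 and 1.42 in Trim28 KO. The WT libraries bracketed both Trim28 KO libraries. On the log2 scale, Trim28 KO minus WT was -0.16, against a pooled SD of 0.39 (n = 2 per genotype). The SD was 0.55 in WT and 0.02 in Trim28 KO. The difference was thus smaller than the spread of the WT libraries, but not than that of the Trim28 KO libraries. WT 1 and WT 2 decided the sign of the difference: it was -0.55 without WT 1 and 0.23 without WT 2.

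Ratios between single genes of the cluster were set side by side in the same way. Meg3 counts per Dlk1 count were 0.74 and 1.22 in WT and 0.742 and 0.872 in Trim28 KO, all within the WT range. Rian counts per Meg3 count were 0.596 and 0.686 in WT and 0.828 and 0.591 in Trim28 KO, with overlap. Mirg counts per 1000 Meg3 counts were 47.1 and 36.3 in WT and 67.4 and 59.6 in Trim28 KO, so both Trim28 KO libraries were higher. Rtl1 counts per 1000 Dlk1 counts were 14.3 and 25.5 in WT and 11.9 and 11.9 in Trim28 KO, so both Trim28 KO libraries were lower. These ratios were not tested.

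**Figure D3:**
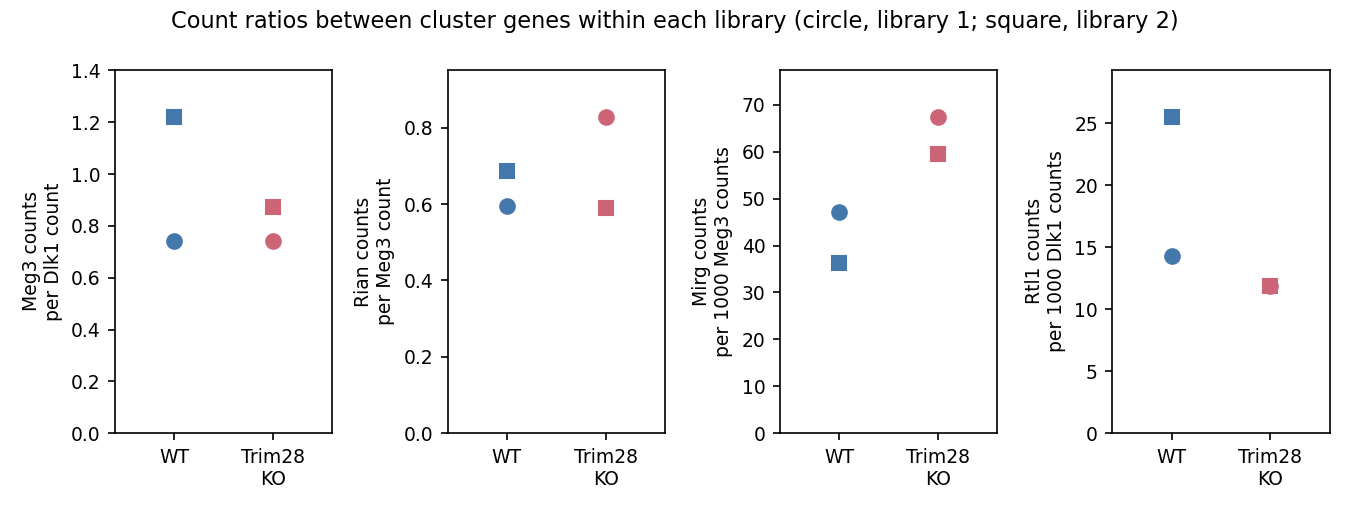
Count ratios between cluster genes in each library, on linear axes from 0 (circle, library 1; square, library 2). Meg3 per Dlk1 and Rian per Meg3 overlap between genotypes, Mirg per Meg3 is higher in both Trim28 KO libraries, and Rtl1 per Dlk1 is lower in both, where the 2 points coincide at 11.9.

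Along the chromosome, the 1.25 Mb from Begain to Dio3 held 121 annotated gene names, of which 119 were in the table, 57 had a count and 14 were tested. Most of the others were small RNA genes: 69 of the 119 were miRNA genes and 23 snoRNA genes. Of the 14 tested genes 10 were not called and 4 were lower, namely Begain, Rtl1, Dio3 and Gm3379. Over all tested genes 8.77% were lower and 8.64% higher, and the call of Dio3 could only be lower, as said above. Gm3379 is a processed pseudogene, so its reads may come from a parent gene. It had 373 and 297 counts in WT and 180 and 147 in Trim28 KO (log2 fold change -1.06, SE 0.22, edgeR quasi-likelihood adjusted p = 0.00136), and lost its call without Trim28 KO 2 (-0.90, adjusted p = 0.0529).

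The 6 other tested genes between Begain and Dio3 were not called. B830012L14Rik, a noncoding RNA gene between Rian and Mirg, had 59 and 76 counts in WT and 88 and 72 in Trim28 KO (log2 fold change 0.22, SE 0.30). Gm37899, just after Rian, had 7 and 34 counts in WT and 23 and 13 in Trim28 KO (-0.20, SE 0.60). The snoRNA gene Gm24564 had 17 and 33 counts in WT and 24 and 28 in Trim28 KO (0.04, SE 0.44). All 3 overlapped between genotypes. The miRNA genes Mir3070b, Mir1188 and Mir3072 had log2 fold changes of -0.49 (SE 0.70), -0.68 (SE 0.49) and 0.97 (SE 0.56). Summed over the stretch, miRNA gene rows held 81 and 122 counts in WT and 109 and 82 in Trim28 KO, and snoRNA gene rows 20 and 40 in WT and 31 and 34 in Trim28 KO. Such rows count fragments of long RNA that cover the small RNA genes, and mature small RNAs were not measured.

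Beyond both ends, 59 genes lay within 1 Mb and 31 were tested. The called genes were 2 higher and 3 lower, where 8.64% of all tested genes were higher and 8.77% lower. The flanks' median log2 fold change was 0.06, beside -0.17 for the 14 genes from Begain to Dio3 and -0.02 for all tested genes. The difference between the flanks and that stretch was not tested. Ankrd9, farthest on the Dio3 side among the called genes, rose from 43 and 38 counts to 119 and 124 (log2 fold change 1.55, SE 0.30, edgeR quasi-likelihood adjusted p = 0.00064). The other 4, Hhipl1 (1.01), Ccdc85c (-0.77), Cyp46a1 (-1.01) and the pseudogene Rps19-ps6 (-0.70), were called and lost the call when single libraries were left out. The largest adjusted p was 0.167 for Hhipl1 (without Trim28 KO 2), 0.373 for Ccdc85c (without WT 1), 0.355 for Cyp46a1 (without Trim28 KO 1) and 0.207 for Rps19-ps6 (without Trim28 KO 2).

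**Figure D4:**
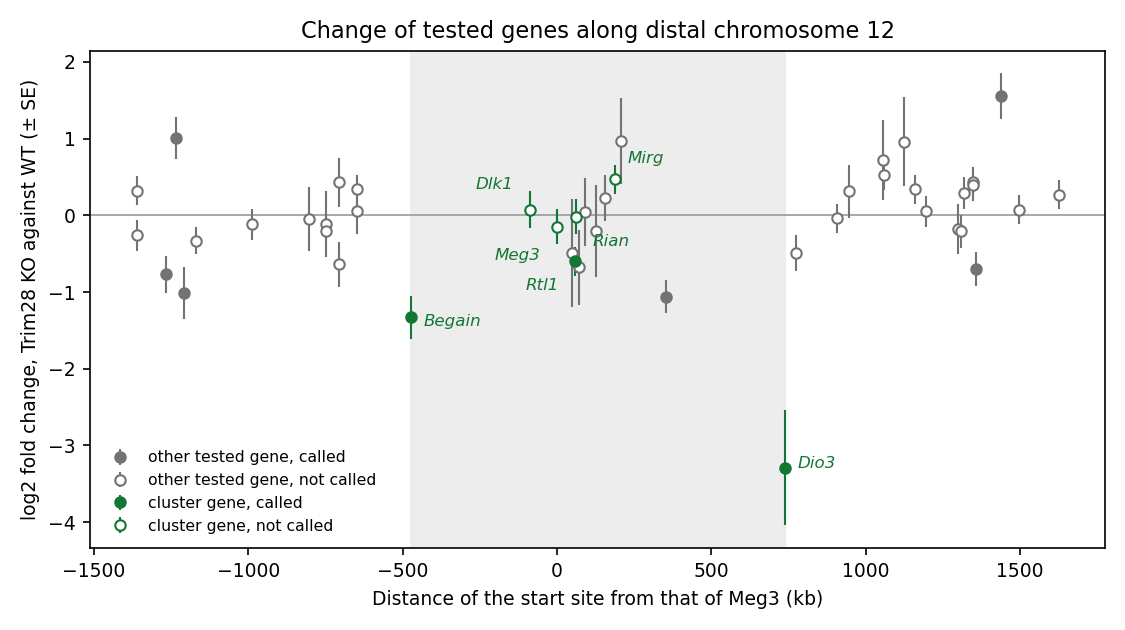
Log2 fold change of Trim28 KO against WT (± SE) for tested genes by the distance of their start site from that of Meg3 in kb; green, the 7 cluster genes; grey, other genes; filled, called; shaded, the span from Begain to Dio3. Begain and Dio3 are the lowest cluster points and stand at the ends of that span. Inside it Dlk1, Meg3 and Rian lie between -0.15 and 0.07, Rtl1 at -0.60 (called) and Mirg at 0.47 (not called).

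The tested genes whose pattern over the 4 libraries was nearest to a cluster gene were found among 11613 genes of at least 5 CPM, by the Euclidean distance of centred log2 CPM. The nearest to Dlk1 were Fkbp8 (distance 0.0246), Rpp25l and Gm7324, and the nearest to Rtl1 were Rb1cc1 (0.0441), Etfbkmt and Tmod2. For Meg3 they included Dclre1a (0.015) and Tanc2, and for Rian they were Hsf2 (0.0611), Gm7887 and Gm10698. The median distance of all genes was 0.554 from Dlk1, 0.735 from Rtl1, 0.464 from Meg3 and 0.586 from Rian. None of the genes found in these searches was a cluster gene, and Mirg, Begain and Dio3 were not searched. With 4 libraries such closeness is common and describes these libraries only.

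Genes that maintain imprints were taken as a list of 20, of which 18 were tested, with a median log2 fold change of -0.24. In this list 1 gene rose and 4 fell (27.8% called), beside 17.4% of all tested genes called either way. The 4 include Trim28 itself, the gene knocked out, whose fall belongs to the design and is no result about the list. The gene that rose was Aff3, whose protein binds the methylated control region of this cluster, from 41.2 and 35.0 CPM to 65.1 and 75.2 CPM (log2 fold change 0.88, SE 0.19, edgeR quasi-likelihood adjusted p = 0.00176). Besides Trim28, Tet1 and Tet3, which oxidise methylated cytosine, and Atrx, a chromatin remodeller, fell. Tet1 changed by -1.11 (SE 0.28), Tet3 by -0.67 (SE 0.20) and Atrx by -0.65 (SE 0.20). The adjusted p without Trim28 KO 1 was 0.141 for Tet1 and 0.344 for Tet3, and without WT 1 it was 0.054 for Tet3. Atrx lost its call without WT 2 (log2 fold change -0.37, adjusted p = 0.305), without Trim28 KO 1 (0.157) and without Trim28 KO 2 (0.16). Without Trim28 KO 1 the 4 lower genes were 1.

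Of 45 imprinted genes from other clusters, 38 were tested, 3 were higher and 8 lower, with a median of -0.24. Without Trim28 KO 1 these counts were 0 and 4. That is 28.9% called, beside 17.4% of all tested genes. The smallest p-values belonged to Kcnq1ot1 (log2 fold change -1.36, SE 0.21), Zim1 (-1.49, SE 0.23), Nnat (-1.29, SE 0.24) and Magel2 (-1.02, SE 0.21), all lower. The difference between this list and the Dlk1-Meg3 cluster was not tested.

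Of 13 tested thyroid hormone genes, listed for their relation to Dio3, 4 were higher and 1 lower, with a median of 0.32. The 4 became 2 without WT 2 or Trim28 KO 1 and 1 without Trim28 KO 2. The direction of the list was not tested, and 8.64% of all tested genes were higher and 8.77% lower. Dio2, the deiodinase that activates thyroid hormone and so acts opposite to Dio3, rose from 9.13 and 9.50 CPM to 35.4 and 24.8 CPM (log2 fold change 1.69, SE 0.21, edgeR quasi-likelihood adjusted p = 4.17e-06). The transporter gene Slc16a10 (0.77, SE 0.23) rose, and the receptor gene Thrb fell (-0.93, SE 0.25). Hr, named after its values were seen, had a log2 fold change of 0.53 (SE 0.19, adjusted p = 0.0491). Other settings ended these 3 calls, and for Hr the adjusted p lay between 0.0548 and 0.196 with 1 library left out. For Slc16a10 it was 0.0525 with DESeq2, 0.127 without WT 2, 0.1 without Trim28 KO 1 and 0.115 without Trim28 KO 2. For Thrb it was 0.182 without WT 2 and 0.216 without Trim28 KO 1.

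Beside Dlk1, of 17 tested Delta and Notch genes 1 was higher and 2 lower, with a median of -0.39. That is 17.6% called, close to the 17.4% of all tested genes. Dlk2, the closest relative of Dlk1, rose from 6.00 and 4.34 CPM to 12.2 and 11.3 CPM (log2 fold change 1.19, SE 0.24, edgeR quasi-likelihood adjusted p = 0.00103). Heyl, a Notch target gene, fell by 1.18 on the log2 scale (SE 0.23), and the receptor gene Notch3 fell by 0.86 (SE 0.21). Notch3 lost its call without WT 1 (adjusted p = 0.0597) and without Trim28 KO 1 (0.154). Hey2, the fourth by p-value, had a log2 fold change of -1.59 (SE 0.59) and was not called.

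Of 12 tested relatives of Rtl1 among genes derived from retrotransposons, 2 were lower and 10 were not called, with a median of 0.02. That is 16.7% called, close to the share of all tested genes. They were Rtl9 (log2 fold change -1.13, SE 0.31) and Arc (-1.35, SE 0.43), a gene of synaptic plasticity. Rtl9 lost its call without WT 2 (adjusted p = 0.214) and without Trim28 KO 1 (0.226), and Arc lost it with DESeq2 (0.131) and without any 1 of the libraries (0.0754 to 0.177). Rtl8b (0.37, SE 0.20) and Rtl3 (-0.36, SE 0.22) were not called.

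Meg3, Rian and Mirg were set beside 11 tested long noncoding RNA genes from elsewhere in the genome, with a median of -0.90. Of the 11 genes 7 fell (63.6%), beside 8.77% of all tested genes. H19, Kcnq1ot1 and Airn also stand in the list of imprinted genes from other clusters, so the lists are not separate. Neat1, the scaffold RNA of paraspeckles, fell by 2 on the log2 scale (SE 0.25), Kcnq1ot1 by 1.36 (SE 0.21), Miat by 2.3 (SE 0.40) and Dnm3os by 1.09 (SE 0.20). The 3 noncoding RNAs of the cluster had changes between -0.15 and 0.47 and were not called. The difference between them and that list was not tested.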

How the data were processed

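Total RNA of rib cartilage cells was sequenced in 4 libraries, grouped by the genotype in the labels. The authors deposited raw counts per gene, summed by gene symbol with featureCounts 1.6.4 on GENCODE M23 of mm10 without options for strand, multi-mapping or overlapping reads, per the file headers. Subread 1.6.4 and edgeR are named in the submitters' processing notes. Which program aligned the reads is not given in the sources used here. The table holds no coordinates, although the planned analysis assumed them, so positions came from GENCODE M21 (GRCm38, the assembly of mm10), where 97.0% of the symbols matched. Sequences came from RefSeq tables on GRCm38.p6. Promoters of Begain, Dio3, Dlk1, Meg3, Mirg and Rian were matched (6 of 7 symbols). Reads that overlap several genes were not counted. Rian has 31981 exon bases in the table and 18234 in M21, which lowers its RPKM if the shorter model holds.

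Genes were kept with edgeR's filterByExpr (minimum count 10), which left 16639 of 30326 genes with a count. The main test of Trim28 KO against WT was the quasi-likelihood F test of edgeR (version 4.0.16, run in R 4.3.3 beside limma 3.58.1), with TMM factors, robust dispersions and Benjamini-Hochberg adjustment over all tested genes at 0.05. The common coefficient of variation between libraries of a genotype, which edgeR names biological, was 16.3%. The labels do not say whether this spread is biological or technical. CPM used TMM-scaled library sizes, and RPKM divided CPM by the table's gene length in kb. Totals of 18616896 to 20082123 counts limit genes near 3 counts. Distances used a pseudocount of 0.5.

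The cluster genes and all lists were chosen with earlier results of these data known. The text names the 7 genes, tested genes between Begain and Dio3, called genes within 1 Mb of them, the 3 nearest patterns of 4 cluster genes, and up to 4 members per list with the smallest p-values, or fewer where a list had none called. Atrx and Hr, outside those 4 of their lists, were named after their values were seen. Some genes that this rule takes are not reported here. Marker lists covered 9 cell types. Muscle markers (13 tested, 1 higher, 1 lower) summed to 692.5 to 899.8 CPM in WT and 529.8 to 1342.1 CPM in Trim28 KO. Of 5 tested adipocyte markers 1 was higher, and 7 endothelial markers were not called, at 387.6 to 437.7 CPM in WT and 326.5 to 370.4 CPM in Trim28 KO. Erythroid markers summed to 254.6 to 348.9 CPM in WT and 75.5 to 81.7 CPM in Trim28 KO. Replicates of both genotypes differed beyond sampling noise (chi-square per degree of freedom 30.6 and 24.6). The test was checked on simulated counts. In the first simulation, with gene-wise dispersions, the share of false calls exceeded the nominal rate. A second, with dispersions that follow the mean, was added after that outcome was seen and gave fewer false calls. Calls with an adjusted p just under 0.05 may therefore be too liberal. Both simulations changed far fewer genes than were called here, so their shares of false calls need not hold for these data.

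The alternatives were RLE factors, library size alone, no filter, 5 CPM in 2 libraries, DESeq2 1.42.0, limma-voom, a replicate block, and each library left out. A crossed replicate block was added after seeing the data.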

Additional observations from a re-analysis of the deposited data

How the results depend on the processing

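The count of 3 lower cluster genes was 1 with DESeq2 and 1 to 2 when single libraries were left out (1 without either Trim28 KO library), and 2 with library size alone, limma-voom or the filter of 5 CPM, where Dio3 was not tested. It was 3 with the replicate block. Begain passed the filter of 5 CPM through its WT libraries alone (9.45 and 6.16 CPM, against 3.19 and 3.01 CPM in Trim28 KO). A call of Begain under that filter could therefore only be lower, and it adds nothing to the counts. Over all genes, 2898 calls became 1274 to 2694 with 1 library left out (1274 without Trim28 KO 1, 1713 without Trim28 KO 2), with 702 to 1442 higher and 572 to 1406 lower. DESeq2 called 2262 genes.

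The log2 fold change of Dlk1 ran from -0.13 to 0.37 with 1 library left out, and that of Rian from -0.21 to 0.23. Rian was 0.04 with library size alone and 0.01 without a filter. Mir3070b ran from -2.1 to 0.25, Gm24564 from -0.31 to 0.57 and Gm37899 from -0.88 to 1.32, and Gm37899 was 0.10 with limma-voom. The causes were not tested. With 1 library left out, the lone library is assumed to vary like the other genotype.

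The labels do not say that equal replicate numbers pair the libraries, and deviations of same-numbered libraries correlated at -0.107. The replicate block called 2921 genes in place of 2898. A block with crossed numbers, added after seeing the data, called 3340 genes and 3 lower cluster genes. Depth limits Dio3, whose Trim28 KO libraries held 2 and 1 counts.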
